A study of Musca domestica with 8 samples.

Results

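The 8 samples of this series were pools of adult houseflies (Musca domestica) of the strain 791spin, and the 4 samples numbered No.2, No.4, No.6 and No.8 were set beside the 4 samples numbered No.1, No.3, No.5 and No.7, 8 of the 8 samples in all. The labels do not name this division. It was chosen by the counts of yolk protein contigs in these same samples, so every value below is a description, and no test, average or fold change between the sets is given. All 8 samples carry one label, 791spin, and are recorded as flies 5 to 7 days old in pools of about 60. The study describes 791spin as selected with spinosad from the multi-resistant strain 791a. It describes its flies as whole adult males and females fed sugar only, without giving the sexes of each of these 8 pools. The series also speaks of a susceptible strain, but no sample used here is labelled as one. The share of males and females in each pool is not given by the labels, and its part in the pattern was not tested. Nothing in the labels says whether the pools came from separate cultures.

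In higher flies, yolk proteins are made in the fat body and in the follicle cells of the ovary of adult females and are taken up by the growing egg. The ovary also loads the egg with maternal RNA and with ribosomes, and its nurse and follicle cells copy their DNA many times. Housefly females carry a cuticular sex pheromone derived from long-chain fatty acids. The last step of cuticular hydrocarbon synthesis in insects is carried out by P450 enzymes of the CYP4G family, and desaturases place the double bonds of the alkenes. The testis has its own beta-tubulin, which builds the sperm tail.

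The counts were assigned to 35834 contigs, which have no genome position, and total counts ranged from 10266664 in No.6 to 16115208 in No.1, with No.2 next at 14483098. Counts were scaled to 1000000 counts per sample (CPM). A contig with 3 counts, taken as the detection limit, stood at 0.186 CPM in No.1 and at 0.292 CPM in No.6, and this limit covers counting error only. Genes that mark tissues of a whole fly were present in every sample, including a midgut trypsin (M_dom_rep_c5980) at 979 to 3548 CPM, a myosin light chain (M_dom_c1522) at 248 to 3325 CPM and the eye pigment protein opsin Rh1 (M_dom_rep_c5524) at 234 to 1206 CPM, and all 3 overlapped between the sets. No contig of the lists matched a male accessory gland protein by name. Several contigs can belong to one gene, so counts of contigs are not counts of genes.

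Of the 20372 contigs that averaged 10 or more counts per sample, 1722 (8.45%) had all 4 even-numbered samples above all 4 odd-numbered samples, and 1232 (6.05%) had the opposite order. Which direction had more contigs depended on the setting: totals without the 10 most counted contigs gave 1542 and 1486, order within the adjacent couples alone gave 3839 and 4055, and leaving out No.5 gave 1843 and 2408. The distance was measured by the separation ratio, the lowest CPM on the higher side divided by the highest CPM on the lower side, with a highest value below 3 counts set to 3 counts. The ratio reached 2 or more in 316 contigs (1.55%) that were higher in the even-numbered samples and in 102 contigs (0.501%) that were higher in the odd-numbered samples. Most separations were small, with a median ratio of 1.32 among the 1722 contigs and of 1.18 among the 1232.

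The samples were not evenly far from the border between the sets. No.6 was the lowest even-numbered sample in 227 of the 316 contigs that were at least 2-fold higher in the even-numbered samples. Among the 102 contigs at least 2-fold higher in the odd-numbered samples, No.6 was the highest even-numbered sample in 57 and No.5 the lowest odd-numbered sample in 62. The 316 contigs held 1.14%, 0.854%, 0.561% and 1.01% of the counts in No.2, No.4, No.6 and No.8, and between 0.0368% and 0.0445% in each odd-numbered sample. The 102 contigs held 0.77%, 1.49%, 0.924% and 1.14% of the counts in No.1, No.3, No.5 and No.7, and 0.137% in No.6 against 0.0165% to 0.0621% in No.2, No.4 and No.8. Without No.6, 608 contigs were at least 2-fold higher in the even-numbered samples, and without No.5, 227 were at least 2-fold higher in the odd-numbered samples.

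**Figure D1:**
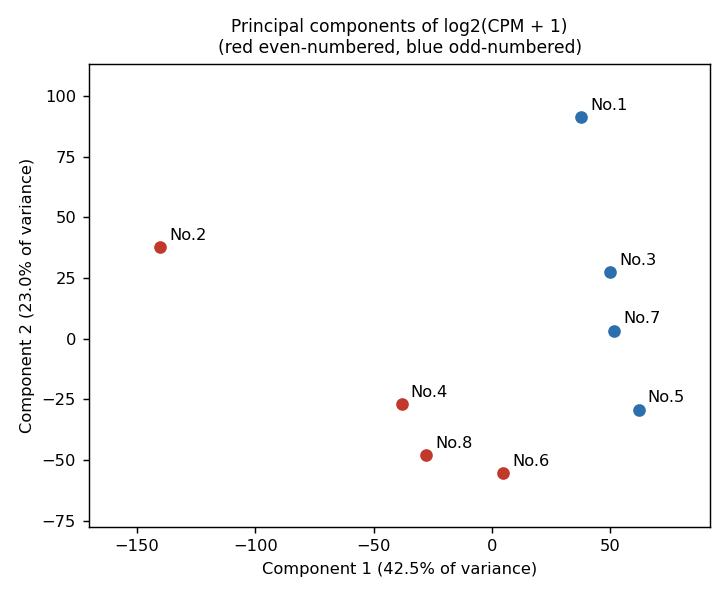
Scores of the 8 samples on the first and second principal component of log2(CPM + 1) over 20372 contigs, in red for even and blue for odd numbers. The odd-numbered samples lie between 37.8 and 62 on component 1 and the even-numbered samples between -140 and 4.7.

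The first principal component of log2(CPM + 1) held 42.5% of the variance. The even-numbered samples scored -140 (No.2), -38.1 (No.4), 4.7 (No.6) and -27.7 (No.8), and the odd-numbered samples scored 37.8 (No.1), 49.9 (No.3), 62 (No.5) and 51.5 (No.7). The sets did not overlap on this axis, but No.2 stood much farther out than the other even-numbered samples. The second component, with 23% of the variance, ran from -55.5 in No.6 to 91.2 in No.1. The sets overlapped on it, although the odd-numbered sample scored higher than its even-numbered neighbour in all 4 adjacent couples.

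The contigs of the sets also differed in what they matched. A protein of a fly or mosquito was the best match of 60.8% of all contigs past the count minimum, of 82.1% of the 1722 contigs higher in the even-numbered samples and of 45.4% of the 1232 contigs higher in the odd-numbered samples. Their median lengths were 803, 911 and 743 bp. The 1722 contigs held 28.7%, 25%, 16.7% and 15.6% of the counts in No.2, No.4, No.6 and No.8, against 6.6% to 9.27% in the odd-numbered samples.

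**Figure D2:**
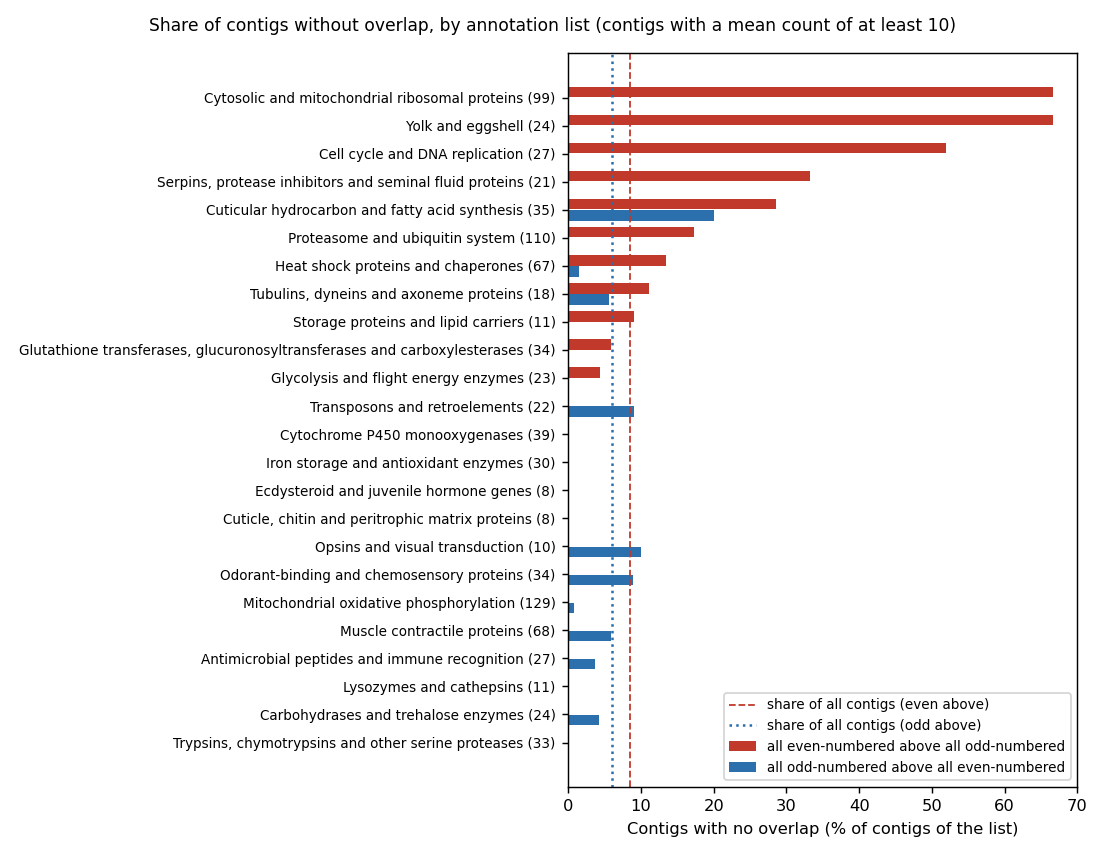
Bars give, for each annotation list with at least 8 contigs past the count minimum, the percentage of its contigs with every even-numbered sample above every odd-numbered sample (red) or the reverse (blue), and lines give the same share of all contigs (8.45% and 6.05%). Ribosomal proteins and yolk and eggshell proteins reach 66.7% in red, and cuticular hydrocarbon synthesis is the list with sizeable bars of both colours, at 28.6% and 20%. Among contigs with a fly or mosquito match, which every list required, the shares were 11.4% and 4.51%.

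Contigs were grouped into 27 lists by the name of their best match, which had to be a fly or mosquito protein. Their shares are read beside the 8.45% and 6.05% of all contigs. Among the 12387 contigs with a fly or mosquito match, which every list required, the shares were 11.4% and 4.51%. The share of contigs higher in the even-numbered samples was above that of all contigs in 11 lists, and the share higher in the odd-numbered samples in 4. The 11 include the yolk and eggshell list, whose place was fixed by the choice of the division. Some lists passed on very few contigs: sex determination on 1 of 3, germline on 2 of 4, storage on 1 of 11 and axoneme on 2 of 18. In the odd direction, the visual list passed on 1 of 10. These tallies are therefore a description only. In 7 lists, 1 of them empty, no contig separated in either direction.

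Yolk proteins, which chose the division, are given as a description only. Of 27 yolk protein contigs, 19 passed the count minimum, and 15 of these were higher in all even-numbered samples. The most counted, a yolk protein 2 contig (M_dom_rep_c6070, 1742 bp), stood at 83.1, 908, 310 and 932 CPM in the samples No.2, No.4, No.6 and No.8. Its values in No.1, No.3, No.5 and No.7 were 0.31, 0, 4.81 and 0.258 CPM. No.2 was thus the lowest even-numbered sample and No.5 the highest odd-numbered one, with a separation ratio of 17.3. The largest ratio of the list, 18, belonged to a yolk protein B contig (M_dom_rep_c11891) with 5.18, 113, 49.1 and 235 CPM in No.2, No.4, No.6 and No.8 and at most 0.288 CPM in the odd-numbered samples. Yolk protein 1 (M_dom_rep_c5690) reached 770 CPM in No.8 and 38.4 in No.2, and at most 3.91 in an odd-numbered sample. A yolk protein A contig (M_dom_rep_c16766) stood at 2.9 CPM in No.2 and at 25.3 to 118 in the other even-numbered samples, against at most 0.192 in the odd-numbered samples. Yolk protein 3 (M_dom_rep_c5544) overlapped, since No.5 with 85.8 CPM and No.7 with 23.9 CPM were above No.2 with 17 CPM. Of the other yolk protein 3 contigs, M_dom_rep_c5775 and M_dom_rep_c21667 separated, with ratios of 6.46 and 2.01. Summed over all 27 contigs, yolk protein CPM were 205.5, 2810, 1827 and 3934 in No.2, No.4, No.6 and No.8, and 19.86, 7.186, 126.3 and 29.44 in No.1, No.3, No.5 and No.7.

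Eggshell proteins, which the follicle cells secrete around the finished egg, did not follow the same order. Chorion protein s16 (M_dom_c37) stood at 252 CPM in No.8 and at no more than 0.207 CPM in any other sample. The s19 chorion protein (M_dom_rep_c6649) was counted in No.8 alone, at 94.1 CPM. Vitelline membrane protein 26Ab (M_dom_rep_c7018) stood at 27.8 CPM in No.8 and 15.3 CPM in No.6, at 0.189 CPM in No.4 and at 0 in the other 5 samples. They were singled out with their values known. Of the 5 contigs past the count minimum, defective chorion 1 (M_dom_c34273) was the one without overlap, and its value in No.2, 0.069 CPM, was below 3 counts.

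**Figure D3:**
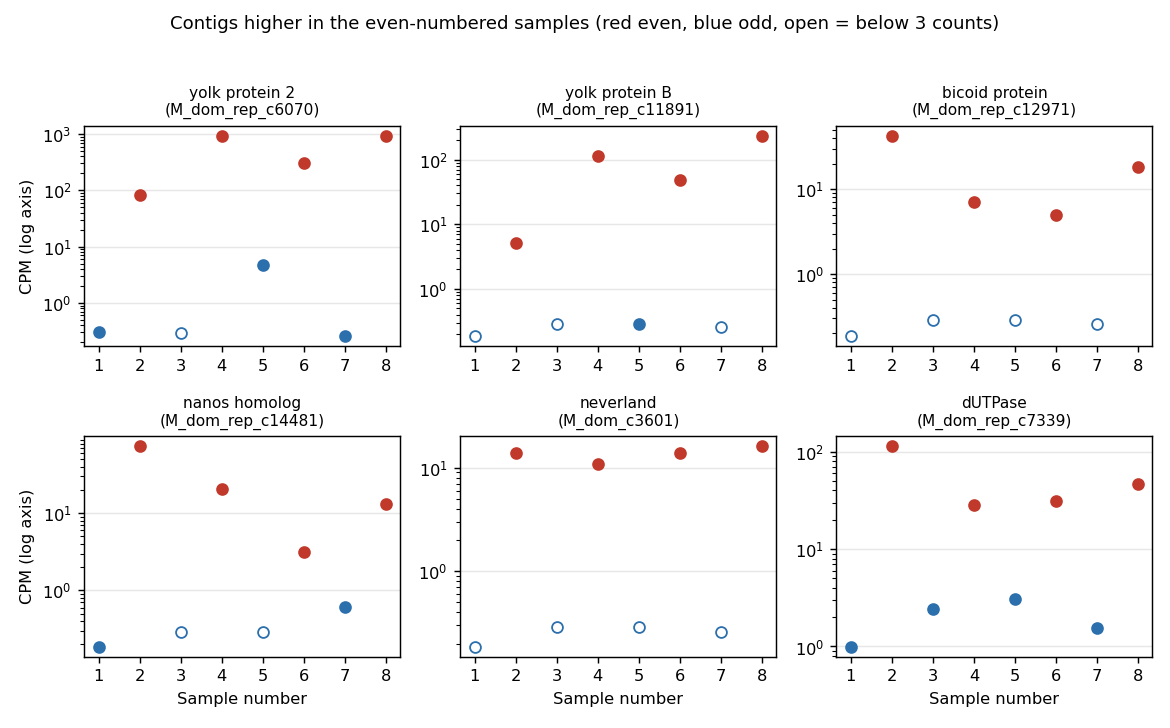
CPM of 6 contigs in each sample on a log axis, red for even and blue for odd numbers, with open points drawn at the level of 3 counts where fewer were counted. In all 6 every even-numbered sample lies above every odd-numbered sample, and No.2 is the lowest even-numbered sample for both yolk proteins and the highest for bicoid protein, the nanos homolog and dUTPase.

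The maternal RNAs named here showed a different order within the even-numbered samples. Bicoid protein, deadhead and plutonium are outside the germline list and were picked for their large ratios among all contigs. Bicoid protein (M_dom_rep_c12971, 2510 bp), whose RNA marks the anterior end of the egg in higher flies, stood at 42.7, 6.98, 4.97 and 18.1 CPM in No.2, No.4, No.6 and No.8, and at 0 to 0.192 CPM in the odd-numbered samples. A nanos homolog (M_dom_rep_c14481), a translational repressor of the posterior egg and the germ line, stood at 73.2, 20.5, 3.12 and 13.1 CPM in No.2, No.4, No.6 and No.8. Its odd-numbered values were 0.186 to 0.603 CPM, which gives a ratio of 5.17. No.2 was the highest sample for both, whereas it was the lowest even-numbered sample for the yolk proteins above. A second nanos contig (M_dom_rep_c11779) had the same division, with 15.7 CPM in No.2 and 1.17 in No.6 against at most 0.517 in an odd-numbered sample. In Drosophila, deadhead is a thioredoxin of the female germ line and plutonium controls DNA replication in the early embryo. Deadhead (M_dom_c1388) was counted only in the even-numbered samples, at 59.7, 3.77, 2.63 and 4.92 CPM. Plutonium (M_dom_rep_c7419) stood at 89.6, 24.6, 14.1 and 46.9 CPM in No.2, No.4, No.6 and No.8 and at no more than 1.72 CPM in an odd-numbered sample. Of the 4 contigs of the germline list past the count minimum, the 2 nanos contigs separated, and Argonaute-2 (M_dom_c3919), of the small RNA pathway, overlapped at 7.6 to 25.7 CPM. With the list patterns as first written, 3 of 29 contigs were higher in all even-numbered samples and 1 in all odd-numbered samples.

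Those contigs of DNA replication and the cell cycle that separated did so in the even direction. Of 27 contigs past the count minimum, 14 (51.9%) were higher in all even-numbered samples, none in all odd-numbered samples, and 13 overlapped. With the list patterns as first written, 14 of 47 contigs were higher in all even-numbered samples and 2 in all odd-numbered samples. The largest ratio, 6.89, was that of centromere/kinetochore protein zw10 (M_dom_rep_c6035), a checkpoint protein of cell division, at 31.2, 6.23, 5.94 and 9.21 CPM in No.2, No.4, No.6 and No.8 and 0.385 to 0.862 CPM in the odd-numbered samples. Another zw10 contig (M_dom_c1223) overlapped, with 15 CPM in No.6 and 19.3 in No.7. Replication factors MCM (M_dom_c5320), of the helicase that opens the DNA, stood at 66.5, 23.8, 9.84 and 15.9 CPM against 0.947 to 1.63 CPM. Cyclin A (M_dom_rep_c17684), which drives the cell cycle, stood at 13.4 CPM in No.2 and 0.584 in No.6 against at most 0.31 CPM. The most counted contig of the list, DNA replication factor SET (M_dom_rep_c12653), was closer, at 65.4 to 116 CPM against 19.2 to 42 CPM. Outside the list, dUTPase (M_dom_rep_c7339), which keeps uracil out of DNA, stood at 113, 28.2, 31.3 and 47.1 CPM in No.2, No.4, No.6 and No.8 and at 0.993 to 3.08 CPM in the odd-numbered samples.

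High mobility group protein D, a chromatin protein abundant in early Drosophila embryos, was matched by 14 contigs past the count minimum. In 8 of them the even-numbered samples were higher by ratios of 5.34 to 18.5. The contig with the largest ratio (M_dom_rep_c18697) stood at 73.3, 13.2, 7.11 and 27.1 CPM in No.2, No.4, No.6 and No.8 and at 0.172 to 0.385 CPM in the odd-numbered samples. The other 6 contigs overlapped, among them M_dom_rep_c7331 with 29.6 CPM in No.2 and 134 CPM in No.3. This protein and neverland were picked for their large ratios among all contigs. Neverland (M_dom_c3601), which carries out the first step from cholesterol to ecdysone, had a ratio of 37.3. It stood at 13.9, 10.8, 13.7 and 16 CPM in No.2, No.4, No.6 and No.8, was at 0 in No.1, No.5 and No.7 and at 0.0958 CPM in No.3. Unlike the maternal RNAs, its even-numbered values lay close together. Neverland was not matched by the name patterns of the ecdysteroid and juvenile hormone list. None of the 8 contigs in that list separated, which says little beside the 8.45% and 6.05% of all contigs.

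**Figure D4:**
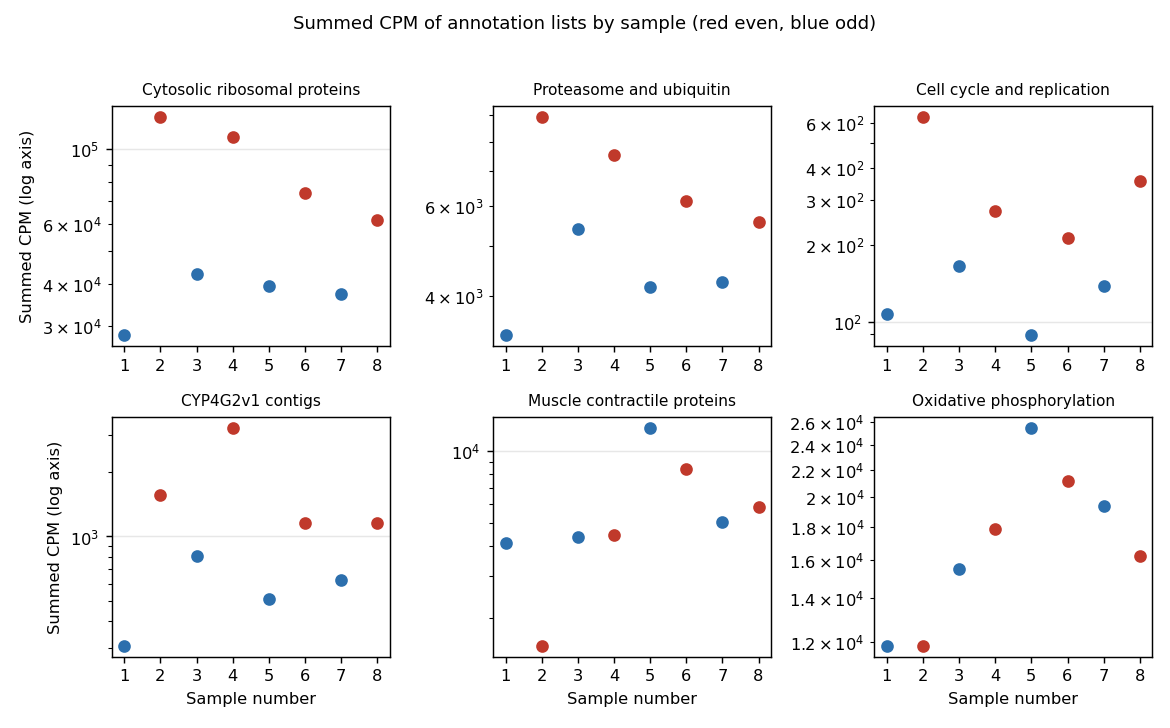
Summed CPM of 6 groups of contigs in each sample on a log axis, red for even and blue for odd numbers. Cytosolic ribosomal proteins, the proteasome and ubiquitin system, the cell cycle and the CYP4G2v1 contigs lie higher in every even-numbered sample, while muscle proteins and oxidative phosphorylation overlap.

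Ribosomal proteins gave the largest number of separated contigs of any list. Of 99 contigs past the count minimum, 66 (66.7%) were higher in all even-numbered samples and none in all odd-numbered samples. Cytosolic proteins accounted for 58 of 73 and mitochondrial ones for 8 of 26. The ratios of the 58 cytosolic contigs were small and alike, from 1.02 to 1.93 with a median of 1.37. Summed cytosolic CPM were 124300, 108800, 74150 and 61670 in No.2, No.4, No.6 and No.8, against 28130, 42700, 39310 and 37240 in No.1, No.3, No.5 and No.7. The most counted, 40s ribosomal protein S26 (M_dom_rep_c6954), stood at 5499 to 9377 CPM in the even-numbered samples and at 2869 to 3518 CPM in the odd-numbered samples. Mitochondrial ribosomal protein L39 (M_dom_rep_c6609) had the largest ratio of the list, 2.43, with 7.11 to 12.4 CPM against 1.25 to 2.93 CPM.

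In the lists of protein turnover and folding, most of the separated contigs were higher in the even-numbered samples, with narrow gaps. In the proteasome and ubiquitin system, 19 of 110 contigs (17.3%) were higher in all even-numbered samples and none in all odd-numbered samples (3 under TMM scaling), with a median ratio of 1.17. A ubiquitin protein ligase (M_dom_rep_c15933) stood at 18.8 to 29.6 CPM against 9.04 to 11.5 CPM. Of 67 heat shock protein and chaperone contigs, 9 (13.4%) were higher in the even-numbered samples and 1 (1.49%) in the odd-numbered samples. The 13.4% was close to the 11.4% of all contigs with a fly or mosquito match. Without No.1 and No.2 the counts of this list were 10 and 6. Hsp90 co-chaperone p23 (M_dom_c3355) had the largest ratio, 1.28, and heat shock protein 70 (M_dom_rep_c5589) overlapped at 629 to 1279 CPM.

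Cuticular hydrocarbon synthesis had many separated contigs in both directions, 10 higher in the even-numbered and 7 higher in the odd-numbered samples of 35, the latter 13 under TMM scaling. The name CYP4G2v1 was matched by 9 contigs, of which 8 were higher in all even-numbered samples, with ratios of 1.01 to 3.04. Summed over these 9, CPM were 1571, 3239, 1162 and 1161 in No.2, No.4, No.6 and No.8, against 306.1, 808.8, 505.9 and 621.2 in No.1, No.3, No.5 and No.7. The contig with the largest ratio (M_dom_rep_c28044) was rare, at 8.68 CPM in No.4 and 0.877 to 1.91 CPM in the other even-numbered samples.

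The contigs matched to the name CYP4G13v2 had the opposite order in 4 of 5 cases. One (M_dom_rep_c17586, 485 bp) stood at 14.7, 21.8, 12.6 and 16.9 CPM in No.1, No.3, No.5 and No.7 and at 0.483, 0, 0.39 and 0.182 CPM in No.2, No.4, No.6 and No.8, a ratio of 26.1. Another (M_dom_rep_c17283) stood at 217 to 287 CPM against at most 9.45 CPM. The most counted contig (M_dom_rep_c6003, 1330 bp) was much less cleanly divided, at 898, 4732, 1667 and 3271 CPM in the odd-numbered samples but 724 CPM in No.2 and 168 CPM in No.6, beside 22.1 in No.4 and 17.2 in No.8. The contig that overlapped (M_dom_rep_c13456) did so through No.2, at 49.6 CPM against 36.4 CPM in No.1. The study assigned the contigs of both names to a single locus, cyp4g2, so they may not be separate genes, and the sources used here do not say how the counting divided reads between them.

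Fatty acyl-CoA desaturase (M_dom_rep_c7674) stood at 554, 1273, 424 and 828 CPM in No.1, No.3, No.5 and No.7 and at 54.5, 129, 86.4 and 118 CPM in No.2, No.4, No.6 and No.8, a ratio of 3.3. Of 19 desaturase contigs past the count minimum, 3 were higher in all odd-numbered samples and none in all even-numbered samples. Stearoyl-CoA desaturase (M_dom_c171) overlapped at 11.3 to 93.2 CPM. Of the other contigs whose match was named a P450, none of 39 separated, beside 8.45% and 6.05% of all contigs. Among them was CYP6G4 (M_dom_rep_c6373) at 64.8 to 379 CPM. That list missed contigs matched to Drosophila gene identifiers alone. Among the contigs that the study assigned to a P450 313a4-like gene, M_dom_rep_c8265 and M_dom_c28384 were higher in all odd-numbered samples, with ratios of 2.26 and 3.67, and M_dom_c1075 and M_dom_c30587 in all even-numbered samples, with ratios of 2.28 and 2.1. These contigs were singled out with their values known. The remaining contigs that the study assigned to this gene were not among those past the count minimum with a ratio of at least 2.

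**Figure D5:**
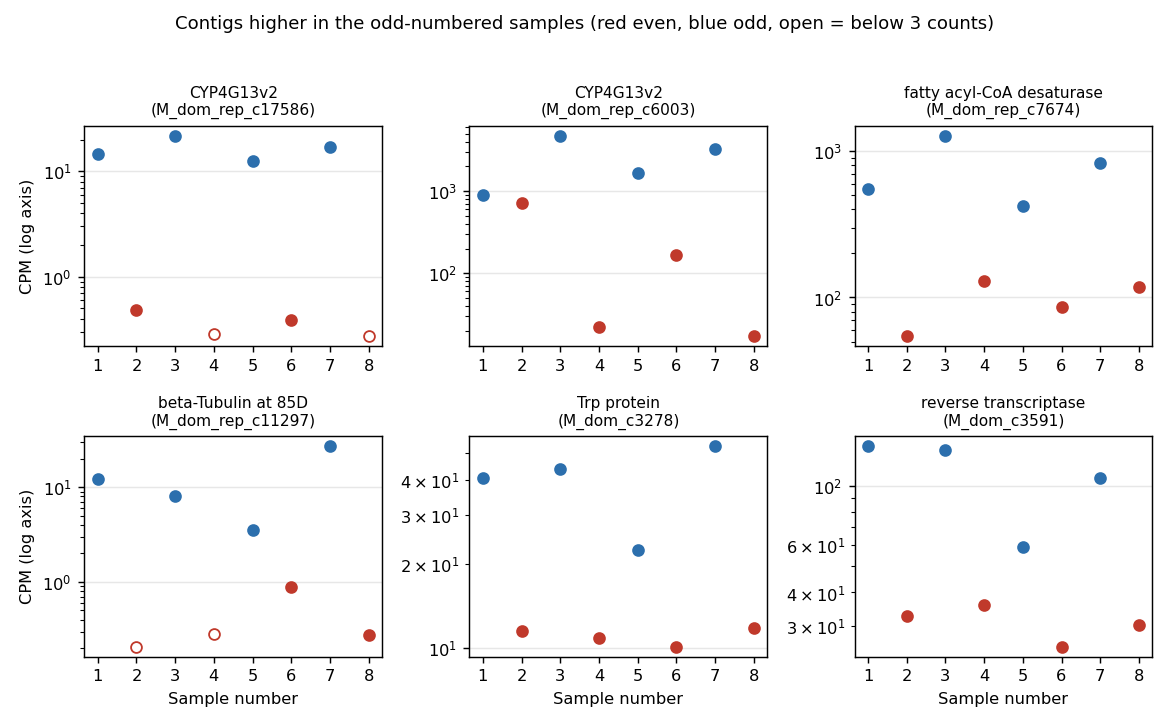
CPM of 6 contigs in each sample on a log axis, red for even and blue for odd numbers, with open points drawn at the level of 3 counts where fewer were counted. In all 6 every odd-numbered sample lies above every even-numbered sample, by the widest margin for the first CYP4G13v2 contig (ratio 26.1) and by a narrow one for the most counted CYP4G13v2 contig (898 CPM in No.1 and 724 CPM in No.2).

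Few contigs of the tubulin and axoneme list separated. Beta-Tubulin at 85D (M_dom_rep_c11297), the testis tubulin of Drosophila, stood at 12.1, 8.14, 3.56 and 26.9 CPM in No.1, No.3, No.5 and No.7. It stood at 0.069, 0.0944, 0.877 and 0.273 CPM in No.2, No.4, No.6 and No.8, so that No.5 and No.6 were the nearest samples and the ratio was 4.06. Of the 18 contigs past the count minimum, 2 others separated in the even direction by ratios of at most 1.04. Alpha-Tubulin at 84B (M_dom_rep_c12028), used by all cells, overlapped at 640 to 1297 CPM. Transformer (M_dom_rep_c7144), the switch gene of sex determination in the housefly, stood at 12.4, 7.55, 7.01 and 7.84 CPM in No.2, No.4, No.6 and No.8 and at 3.6, 5.65, 4.33 and 4.13 CPM in the odd-numbered samples. Its ratio of 1.24 was small, the counts do not tell its splice forms apart, and transformer 2 (M_dom_c149) and intersex (M_dom_rep_c7233) overlapped.

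Among secreted proteins, all 6 contigs matched to antigen 5 were higher in the even-numbered samples, with ratios of 1.3 to 6.35. The one with the largest ratio (M_dom_rep_c14665, antigen 5-related salivary protein) stood at 11.6, 28.8, 39.8 and 38.8 CPM in No.2, No.4, No.6 and No.8, at 1.83 CPM in No.5 and at 0 in the other odd-numbered samples. Another (M_dom_rep_c6074, antigen 5 precursor) stood at 24.3 to 84.4 CPM against 0.479 to 5.67 CPM. Of the 15 serpins and other protease inhibitors, serine protease inhibitor 27A (M_dom_rep_c7671) was the one that separated, at 29.7 to 48.2 CPM against 9.43 to 20.6 CPM. A glutathione S-transferase (M_dom_rep_c6311) stood at 118 to 194 CPM in the even-numbered samples and 40.1 to 68.7 CPM in the odd-numbered samples. In its list 2 of 34 contigs (5.88%) separated, both in the even direction, which is below the 8.45% of all contigs.

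In the lists of sensory proteins and of muscle, the few separated contigs were higher in the odd-numbered samples. Their shares were 5.88% to 10%, beside 6.05% of all contigs and 4.51% of those with a fly or mosquito match. Each share rested on at most 4 contigs. Odorant binding proteins gave 3 of 34 chemosensory contigs (8.82%), the widest being odorant binding protein 2 (M_dom_c28212) at 6.28 to 15.9 CPM against 1.64 to 3.87 CPM. In the visual list 1 of 10 contigs separated and 9 overlapped. The 1 was arrestin 2 (M_dom_rep_c16834), which switches off rhodopsin, at 2.69 to 10.5 CPM against 0.779 to 2.17 CPM. Opsin Rh1 (M_dom_rep_c5524) overlapped, at 958, 1206, 336 and 1008 CPM in No.1, No.3, No.5 and No.7. It stood at 474, 687, 234 and 328 CPM in No.2, No.4, No.6 and No.8. Within each adjacent couple its odd-numbered sample was higher, an order shared by 19.9% of all contigs. Outside the list, and named for its ratio among all contigs, Trp protein (M_dom_c3278), a channel of photoreceptors, stood at 40.8, 43.8, 22.4 and 52.8 CPM in No.1, No.3, No.5 and No.7 and at 11.5, 10.9, 10.1 and 11.8 CPM in No.2, No.4, No.6 and No.8. Of 68 contractile protein contigs, 4 (5.88%) were higher in all odd-numbered samples, by ratios of 1.0 to 1.18, and under TMM scaling 1 contig was higher in all even-numbered samples. Of 129 contigs of oxidative phosphorylation, 1 separated, NADH dehydrogenase flavoprotein 1 (M_dom_rep_c28737), at 98.5 to 125 CPM against 65.2 to 84.7 CPM. A reverse transcriptase (M_dom_c3591) stood at 140, 136, 59.3 and 107 CPM in No.1, No.3, No.5 and No.7 but only 25.1 to 35.9 CPM in the even-numbered samples. Of 22 transposon contigs, 2 (9.09%) were higher in all odd-numbered samples, beside 6.05% of all contigs.

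Several of the contigs with the largest odd-numbered ratios matched proteins of distant organisms, so that their function in the housefly is not known from the match. The contig matched to a bacterial Na+/H+ antiporter (M_dom_c21319, 243 bp) stood at 2530, 4781, 2877 and 2725 CPM in No.1, No.3, No.5 and No.7 and at 22, 43.8, 451 and 128 CPM in No.2, No.4, No.6 and No.8. A contig matched to a Leishmania high mobility group homolog (M_dom_rep_c28370) stood at 29.7 to 138 CPM against 0 to 4.48 CPM. A contig matched to a Ty1-copia retrotransposon protein of rice (M_dom_c1592) stood at 23.1 CPM in No.1 and 2.4 to 3.16 CPM in the other odd-numbered samples, against at most 0.189 CPM.

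No contig separated among 33 of serine proteases, 11 of lysozymes and cathepsins, 30 of iron storage and antioxidant enzymes, or 8 of cuticle and peritrophic matrix proteins. Of all contigs, 8.45% separated in the even direction and 6.05% in the odd direction. None among 8 or 11 contigs therefore says little about these functions. In antimicrobial peptides and immune recognition 1 of 27 separated, Attacin A11 (M_dom_c1912), through 99.1 CPM in No.3 and 14.4 to 20.3 CPM in the other odd-numbered samples against 0.456 to 12.3 CPM. Of 24 carbohydrase contigs, 1 separated, an alpha-amylase (M_dom_rep_c5494), with a ratio of 1.03. Glycolysis gave 1 of 23 contigs (4.35%), phosphoglucomutase (M_dom_rep_c6847), with a ratio of 1.13. Storage proteins gave 1 of 11 (9.09%), glycolipid transfer protein (M_dom_rep_c34587), with a ratio of 1.09. Both were higher in the even-numbered samples. The storage protein hexamerin F1 (M_dom_rep_c16955), of the fat body, varied widely without following the numbering, reaching 1942 and 2231 CPM in No.5 and No.6 but only 5.46 and 16.2 CPM in No.1 and No.2. None of the 10 most counted contigs separated, and they matched hypothetical proteins, the first (M_dom_c599) at 19660 to 34760 CPM. M_dom_c599, M_dom_rep_c8792 and M_dom_c34115 had the same match and nearly the same counts, at 560153, 557630 and 558048 in No.1. They may therefore hold the same reads.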

How the data were processed

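RNA of 8 pools of whole adult 791spin houseflies was measured. Per the file headers, the authors deposited whole-number read counts per contig, not normalized, together with a scaled signal, which equals the count times 1 factor per sample, and the contig length in bp, a value of another kind. The scaled signal was read only to check that relation. Contigs came from a normalized cDNA library, assembled by the authors with Newbler and MIRA and annotated by BLASTX. Normalization of a library evens out abundant transcripts. The study gives far fewer reads for that library than any sample here has counts, so the CPM values are not those of that library. The sources used here do not name the program that counted reads. Near-identical contigs share reads, so totals may hold a read more than once.

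Samples were matched to columns by title and kept in 1 labelled group. CPM were computed on sample totals, contigs that averaged 10 or more counts were kept, and non-overlap was counted. The division and the lists were chosen with earlier results of these data known. Because the division was selected on yolk protein counts of these samples, no p-value was computed. List patterns were corrected, and a fly or mosquito match required, after results per list had been seen, and the first version is given in the closing section. The lipase list then held no contig. Named contigs are, per list, the most counted and the one with the largest ratio on each side, then the 10 largest ratios per side at a mean count of at least 50 with an informative annotation (1 per name), and the 10 most counted. Others named, and the sublists of yolk, eggshell, CYP4G, desaturase, antigen 5, nanos, ribosomal and high mobility group contigs, were picked with their values known. Counting of non-overlap was tested on simulated data. Alternatives concerned count minimums, scaling (TMM of edgeR 4.0.16, size factors of DESeq2 1.42.0, R 4.3.3, and totals without the 10 most counted contigs), left-out samples and adjacent couples. Python 3.11.15, numpy 2.4.6, pandas 2.3.3, scipy 1.17.1 and matplotlib 3.10.9 were used.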

Additional observations from a re-analysis of the deposited data

Results flagged for a closer look

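In each group of 8 values, a sample was picked out when its gap to the nearest other sample was more than a set part of the whole range, which chance gives in about 5% of groups. Of 101 results examined, many of them named for how far their values lay apart, 20 had such a sample. Because of that choice, the 20 cannot be measured against the 5%. No.2 stood apart in the summed CPM of sex determination contigs (45.16, next 21.14) and of germline contigs (110.6, next 56.9). It was also far above the rest for deadhead (M_dom_c1388, 59.66 CPM, next 4.921), kinesin heavy chain (M_dom_c3115, 9.528), zw10 (M_dom_rep_c6035, 31.21), phosphoglucomutase (M_dom_rep_c6847, 7.94), dUTPase (M_dom_rep_c7339, 112.6), bicoid protein (M_dom_rep_c12971, 42.67), the nanos homolog (M_dom_rep_c14481, 73.19) and high mobility group protein D (M_dom_rep_c18697, 73.26).

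No.1 stood apart for the contigs matched to a Ty1-copia retrotransposon protein (M_dom_c1592, 23.08 CPM) and prostaglandin G/H synthase (M_dom_c2874, 13.4 CPM), and for 4 of the 10 most counted contigs, M_dom_c4035 (22020 CPM), M_dom_rep_c7952 (32180 CPM), M_dom_rep_c10929 (20870 CPM) and M_dom_rep_c20258 (28890 CPM). No.3 stood apart in the summed CPM of antimicrobial peptides and immune recognition (16760, next 8975) and for Attacin A11 (M_dom_c1912, 99.08 CPM). No.7 stood apart for beta-Tubulin at 85D (M_dom_rep_c11297, 26.86 CPM, next 12.1) and No.4 for a CYP4G2v1 contig (M_dom_rep_c28044, 8.681 CPM, next 1.914).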

How the results depend on the processing

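No contig changed sides under another scaling. The other alternatives could not move a separated contig to the other side, because leaving out samples, comparing couples or filtering contigs keeps its order. A minimum mean count of 50 left 1099 and 778 separated contigs (even-numbered and odd-numbered higher), 179 and 46 of them at least 2-fold. Requiring the order only within the 4 adjacent couples gave 3839 and 4055, and 721 and 283 at least 2-fold. Leaving out 1 sample at a time gave 1843 to 2565 and 1417 to 2408 contigs, and 341 to 608 and 110 to 227 at least 2-fold. Fewer samples separate more readily by construction. The odd-numbered counts moved most without No.5 (2408 and 227) and without No.8 (1993 and 173), and the even-numbered 2-fold count without No.6 (608). Without No.1 and No.2, 1893 contigs were higher in the odd-numbered samples. Among contigs with a fly or mosquito match, 559 were higher in the odd-numbered samples, 50 at least 2-fold, beside 1414 higher in the even-numbered samples. With 1 contig per annotation, 802 were higher in the odd-numbered samples. These last alternatives were chosen after seeing the data. The even-numbered share of all separated contigs was 58.3%, and 50.9% on totals without the 10 most counted contigs, 48.6% in couples, 43.4% without No.5 and 71.7% among fly and mosquito matches. TMM shifted all contigs by -0.27 (log2) in No.3 and 0.27 in No.5. Under TMM, 1631 of the 1722 and 1048 of the 1232 contigs still separated, and alpha-amylase (M_dom_rep_c5494), tropomodulin (M_dom_rep_c13099) and a heat shock protein (M_dom_rep_c7673) no longer did.

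With the list patterns as first written and matches to any organism, oxidative phosphorylation had 5 and 18 separated contigs of 307 in place of 0 and 1 of 129, immune genes 3 higher in the even-numbered samples, and chemosensory proteins 5 and glutathione transferases and esterases 5 higher in the odd-numbered samples, and 6 lipase contigs had none. Germline contigs had 3 and 1 of 29 in place of 2 and 0 of 4, and cell cycle contigs 14 and 2 of 47 in place of 14 and 0 of 27. Yolk and ribosomal proteins had 16 and 68 in the even direction. The labels pair no samples, and the adjacent couples were compared only by their order.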
